A study of Mus musculus with 2 samples.

Results

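The genes described here are the 7 that build and load MHC class II molecules: *H2-Aa*, *H2-Ab1*, *H2-Eb1*, *Cd74*, *H2-DMa*, *H2-DMb1* and *Ciita*. They were taken by name, 7 of the 32285 genes in the count tables, and read in cell barcodes with at least 500 detected genes and at most 10% of UMIs from mitochondrial genes. A UMI (unique molecular identifier) marks 1 captured RNA molecule. The cells were alveolar macrophages (AMs) of C57BL/6 mice, the resident macrophages of the air spaces, sorted as CD45+, autofluorescent, Siglec-F+, F4/80+ and CD11b- cells. The control library came from mice given the vehicle into the lung. The tumor library came from mice with Lewis lung carcinoma cells (LLC) that express tdTomato, placed in the left lung with Matrigel. Both carry an age label of 10 weeks, no deletion or drug is named for either, and control and experimental mice were bred separately. The day of lung collection for these libraries was not given in the sources used here. Each condition is 1 library, and the sources used here do not give how many mice went into it. Condition, breeding and library therefore cannot be told apart, and no test between conditions was possible.

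MHC class II molecules hold peptides from engulfed proteins at the cell surface, where CD4+ T cells read them. *H2-Aa* and *H2-Ab1* encode the α and β chains of I-A, and *H2-Eb1* encodes the β chain of I-E. *Cd74* encodes the invariant chain, which fills the groove of new molecules and guides them to endosomes. *H2-DMa* and *H2-DMb1* encode the H2-DM pair that exchanges the last piece of the invariant chain for peptide. *Ciita* encodes the coactivator on which transcription of the others depends, and interferon gamma is its classical inducer. C57BL/6 mice make no I-E at the surface because their α chain gene for it is disrupted. Resting AMs are known for low MHC class II compared with dendritic cells (DCs).

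CIITA works through factors already bound to 2 short elements before the gene start, the X and Y boxes, so the sequence around them is shown for 2 chains whose RNAs were counted together below. RefSeq windows on mouse build GRCm38.p6 were given for 4 of the 7 genes and were not used for *Cd74*, *H2-Ab1* and *Ciita*. Capitals mark TGATTGG, which holds the inverted CCAAT of a Y box, and GCAAC and AACTGATG, which lie where the X box is expected. The stretch of *H2-Aa* is chr17:34287824-34287973 on the minus strand, and that of *H2-Eb1* is chr17:34305717-34305866 on the plus strand. Each is the 150 bases before the RefSeq start, written 5′ to 3′.
H2-Aa: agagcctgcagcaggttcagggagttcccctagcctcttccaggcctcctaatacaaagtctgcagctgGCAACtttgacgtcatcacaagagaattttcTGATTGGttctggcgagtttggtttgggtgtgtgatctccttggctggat
H2-Eb1: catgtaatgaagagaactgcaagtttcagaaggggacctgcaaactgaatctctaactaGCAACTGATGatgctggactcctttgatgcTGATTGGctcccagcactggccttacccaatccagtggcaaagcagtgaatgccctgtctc
In *H2-Aa* GCAAC spans bases -81 to -77 from the start and TGATTGG bases -50 to -44. In *H2-Eb1* GCAAC spans -91 to -87 and overlaps AACTGATG at -89 to -82, and TGATTGG lies at -61 to -55. The same window of *H2-DMb1* held AACTGATG at -92 to -85 and TGATTGG at -63 to -57. The first of 2 windows of *H2-DMa* held GCAAC on the opposite strand at -7 to -3, and its second window held none of these motifs. Searched on both strands in 32851 windows of this length, TGATTGG was in 5.71%, GCAAC in 19.6%, CCAAT in 24.5% and AACTGATG in 0.377%. The letters were chosen after the sequences had been read, so their presence is a description.

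The filter kept 6185 of 8485 control barcodes with 64850143 UMIs and 7666 of 9175 tumor barcodes with 68801889 UMIs. The median was 10370 UMIs per control cell and 8264 per tumor cell. To compare shares of cells at equal depth, each cell was thinned at random to 3800 UMIs, which left out 595 control and 729 tumor cells and kept 5590 and 6937. At that depth at least 3 of 10 AM markers were detected in 99.7% of control and 97.9% of tumor cells. The libraries had 25 cell barcodes in common, 17 of them among kept cells. Levels are CPM, the UMIs of a gene scaled to a total of 1000000 UMIs of the same cells, and intervals in parentheses are exact at 95% and cover counting error only, not variation between cells or mice. No doublets were removed. As a rough measure of free RNA, barcodes with neutrophil, fibroblast or T and NK cell markers were read. A UMI of the 3 chain genes was in 1 of 9 control and 3 of 29 tumor barcodes (10.3%, 2.19 to 27.4), at medians of 6686 and 10090 UMIs. Of these, 3 control and 19 tumor barcodes carried the neutrophil list. Its genes *S100a9*, *Retnlg*, *Mmp9* and *Ly6g* had at most 3 UMIs each in the thinned cells of either library. *S100a8* and *Csf3r* had 6867 and 684 UMIs in tumor cells outside the class II-high ones defined below. Barcodes with the neutrophil list may therefore be macrophages. All other cells had medians of 10844 and 8765 UMIs. Few marked barcodes were available, so the background is poorly bounded.

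All 7 genes had a lower level in the tumor library, by amounts between 1.05-fold and 1.59-fold. Of the chains, *H2-Aa* (chromosome 17, 34282744 to 34287823, minus strand of GRCm38) had 95.6 CPM in control (6201 UMIs) and 86.9 in tumor (5979 UMIs), a log2 ratio of -0.14 (-0.19 to -0.09). Its UMIs were found in 14.99% of thinned control cells and 12.8% of thinned tumor cells. *H2-Ab1* (chromosome 17, 34257689 to 34269419) had 108 CPM in control and 96.9 in tumor, and was found in 17.4% and 14.0% of cells. *H2-Eb1* (chromosome 17, 34305867 to 34316674) had 45.4 and 43.2 CPM, with an interval of the log2 ratio from -0.15 to 0.00, and was found in 8.82% and 7.27% of cells. The share intervals of the libraries did not overlap for any of these 3 chains. These intervals cover counting error over the cells of 1 library per condition, so they do not test a difference between conditions. The share of all genes whose intervals also lie apart was not computed.

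The invariant chain gene *Cd74* (chromosome 18, 60803848 to 60812652) had 444 CPM in control and 353 in tumor. Its log2 ratio was -0.33 (-0.36 to -0.31), and 32.1% of control and 24.6% of tumor cells had a UMI. *H2-DMa* (chromosome 17, 34119541 to 34139101) was detected in 59.6% (58.3 to 60.9) of control and 46.3% (45.1 to 47.5) of tumor cells. Its level was 258 CPM in control and 178 in tumor, a log2 ratio of -0.54 (-0.57 to -0.50). Its partner *H2-DMb1* (chromosome 17, 34153072 to 34160230) had 84.3 and 71.6 CPM and was found in 25.5% and 21.5% of cells. Reads that match both *H2-DMb1* and its close copy *H2-DMb2* cannot be assigned, so the level of *H2-DMb1* may be understated. *Ciita* (chromosome 16, 10480059 to 10528418) had 156 UMIs in control and 104 in tumor, or 2.41 and 1.51 CPM. It was found in 0.894% and 0.605% of cells, and those intervals overlapped. Levels of different genes were not scaled for length because the 3′ method counts molecule ends, and capture may still differ between transcripts.

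**Figure D1:**
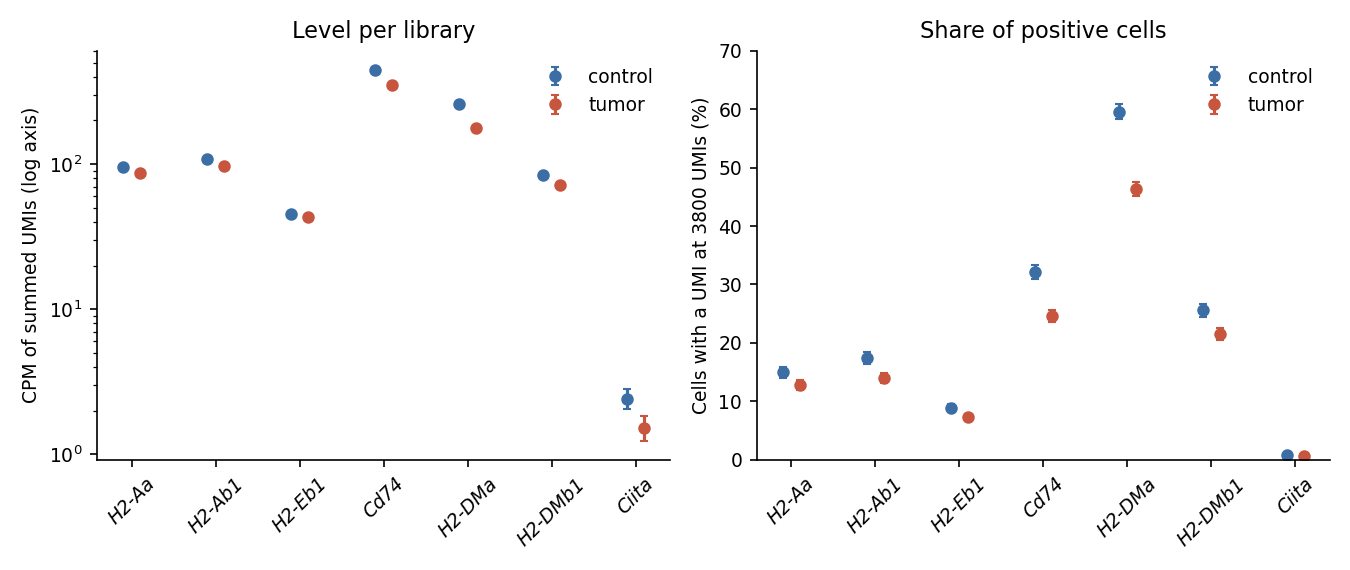
Left, level of each gene in CPM of summed UMIs on a log axis. Right, percent of cells with at least 1 UMI after thinning to 3800 UMIs. Blue is the control library, red the tumor library (1 library each), and bars are exact 95% intervals for counting error. All 7 genes lie lower in tumor, with the widest gap in detection for H2-DMa, 59.6% against 46.3%. The median level ratio of all compared genes, not drawn, was also below 0 (log2 -0.07).

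The median log2 ratio over the 7 genes was -0.24, against -0.07 over the 12936 genes that reached 10 UMIs on both sides. *Ciita* alone was past 1.5-fold lower, beside 12.0% of all compared genes, and no member was past 1.5-fold higher, beside 8.02%. Summed, the 3 chain genes (the classical genes below) had 249 CPM in control (16173 UMIs) and 227 in tumor (15617 UMIs), a log2 ratio of -0.14 (-0.17 to -0.10). When each cell had the same weight, the gap was wider. At 3800 UMIs per cell the classical sum averaged 0.964 UMIs per control cell and 0.723 per tumor cell, a log2 ratio of -0.41 (-0.47 to -0.36), and the mean of each cell's own CPM gave -0.49. The equal-depth ratios of the single genes ran from -0.28 for *H2-DMb1* to -0.56 for *H2-DMa*. That of *Ciita* was -0.55 (-1.17 to 0.05), no longer past 1.5-fold, while by the mean of each cell's own CPM *Cd74* was past it as well (-0.68). The share of all genes past 1.5-fold was not computed under these weightings.

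The depth of the cell moved with class II in the tumor library. Among tumor cells with 3800 to 6000 UMIs before thinning, 17.8% (15.7 to 20.05) had a classical UMI at equal depth. This share was 16.8%, 19.8% and 22.2% in the next 3 bins and reached 31.5% (28.1 to 35.0) in the 721 cells with at least 15000 UMIs. In control the share stayed between 20.5% and 24.3% over the same bins, and their intervals overlapped. The classical level of the deepest cells was 214 CPM in control and 422 in tumor, the reverse order of the whole libraries. *H2-DMa* did not follow, with 190 CPM in the shallowest and 165 in the deepest tumor bin. The deepest tumor cells also held more cells of the Apoe and S100a6 gate (17.1%, against 4.19% in the shallowest) and more interferon-high cells (19.0% against 4.51%), both described below. The part of these in the depth pattern was not tested.

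**Figure D2:**
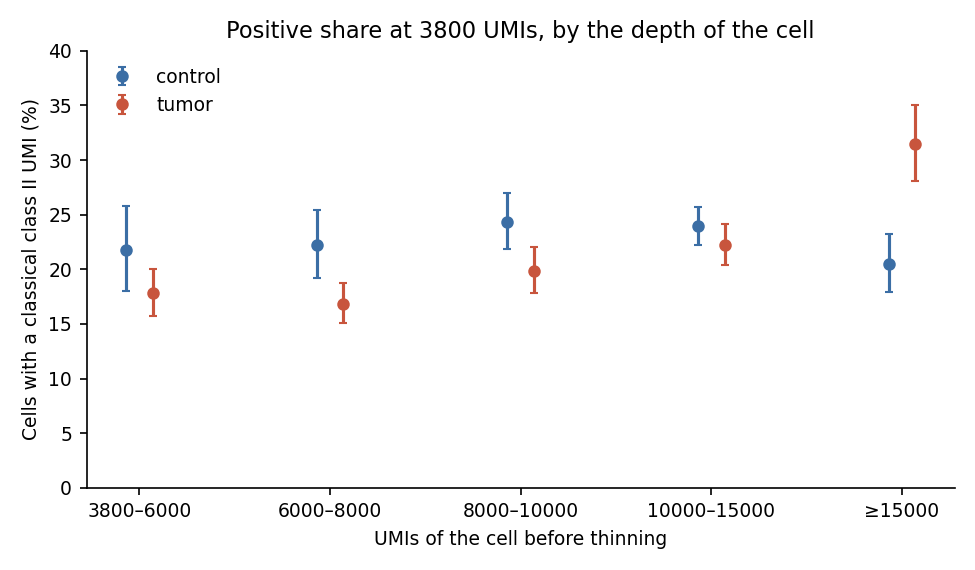
Percent of cells with at least 1 UMI of H2-Aa, H2-Ab1 or H2-Eb1 after thinning to 3800 UMIs, by the UMIs of the cell before thinning. Blue is control, red tumor, and bars are exact 95% binomial intervals. The tumor share is 16.8% to 22.2% in the first 4 bins and 31.5% in the deepest, where control has 20.5%.

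Most cells had no classical UMI at equal depth, 77.0% in control and 79.4% in tumor, and the rest formed a long tail. From 1 UMI upward, the number of control cells fell from 458 at 1 UMI through 366 at 2 to 3, 270 at 4 to 7, 152 at 8 to 15 and 37 at 16 to 31, to 4 at 32 to 63 and 1 above that. In tumor the same steps held 638, 403, 255, 98, 29, 6 and 2 cells. No bin rose above the one before it, so no second mode of class II-rich cells stood apart from the tail in either library. The same held in the 3312 control and 2618 tumor cells that could be thinned to 10000 UMIs. In these deep cells 68.7% of control and 64.8% of tumor cells had no classical UMI.

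Although there was no second mode, the UMIs were concentrated in few cells. The highest 5% of cells held 59.3% of the classical UMIs in control and 64.5% in tumor. The variance over the mean was 12.4 and 12.5 for the classical sum, against 1.24 and 1.21 for *H2-DMa*, whose mean per control cell was similar, 1.22 and 1.24 for *H2-DMb1*, and 11.02 and 13.1 for *Cd74*. Thus *Cd74* was spread over cells like the chains, and the H2-DM genes were spread more evenly. A mixture of 2 Gaussians on the log2 scale gave a lower component at 0 UMIs and parted only cells without from cells with a UMI, so it was not used as evidence of 2 states.

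**Figure D3:**
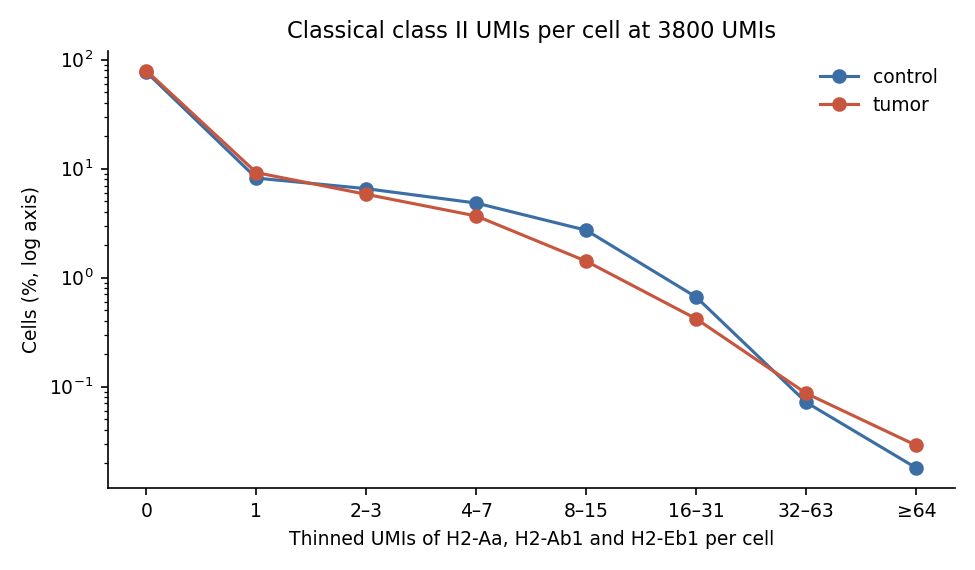
Percent of cells (log axis) by their thinned UMIs of H2-Aa, H2-Ab1 and H2-Eb1 together, in bins that double in width. Blue is control with 5590 cells, red tumor with 6937. Both lines fall at every step, from 77.0% and 79.4% at 0 UMIs to 0.0179% and 0.0288% at 64 or more.

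The members did not go together to the same degree. Among control cells with *H2-Aa*, 92.6% also had *Cd74* and 70.3% had *H2-Ab1*, against 21.4% and 8.06% of cells without it. In tumor these shares were 83.0% and 60.5%, against 16.1% and 7.14%. *H2-DMa* was in 74.3% of control cells with *H2-Aa* and in 57.0% of those without, and in 56.8% and 44.7% in tumor. Over thinned cells, Pearson's r of the log2 counts of *H2-Aa* with *H2-Ab1* was 0.72 in control and 0.66 in tumor, with *Cd74* 0.75 and 0.72, and with *H2-DMa* 0.17 and 0.12. *H2-DMa* with its partner *H2-DMb1* gave 0.07 and 0.06. These correlations run over cells of the same library at the same depth and are given as a description. *H2-DMa* was present in 56.1% of control and 44.2% of tumor cells that had no classical UMI at all. In the barcodes with neutrophil, fibroblast or T and NK cell markers it was seen in 22.2% of 9 and 27.6% of 29, and *H2-DMb1* in 22.2% and 17.2%. These few barcodes bound the background poorly. Carriers of the neutrophil list, 3 of the 9 and 19 of the 29, may be macrophages.

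Outside the 7 genes, the 10 whose counts followed the classical sum most closely, by the mean r of both libraries over 9698 genes, were *S100a6*, *S100a4*, *Cd52*, *Lyz2*, *H2-K1*, *B2m*, *AA467197*, *Ctss*, *Fn1* and *Ms4a6c*. Their r was low. *S100a6*, a calcium-binding protein, had 0.20 in control and 0.22 in tumor, *S100a4* had 0.21 and 0.19, and *Ms4a6c*, the tenth, had 0.10 and 0.16. *H2-K1* and *B2m*, the chains of an MHC class I molecule, had 0.11 and 0.18, and 0.10 and 0.18.

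Cells with at least 10 thinned classical UMIs are called class II-high. There were 137 of 5590 in control, 2.45% (2.06 to 2.89), and 97 of 6937 in tumor, 1.40% (1.14 to 1.70). They held 40.01% and 35.4% of the classical UMIs. The cutoff lies inside the tail, with 57 control and 38 tumor cells at 8 to 9 UMIs just below it and 41 and 32 at 10 to 11 just above. All 137 and 97 cells had *Cd74*, and 118 and 90 had all 3 chains. With a cutoff of 20 UMIs the order of the libraries turned, with 0.286% (0.164 to 0.464) of control and 0.332% (0.210 to 0.497) of tumor cells, and the intervals overlapped.

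Class II-high cells also had more of the members that were not used to choose them. *Cd74* was at 4876 CPM in control class II-high cells and 77.5 in cells without a classical UMI, a 62.9-fold gap, and at 5700 and 62.0 CPM in tumor, a 91.9-fold gap. *H2-DMb1* was 5.04-fold higher in control and 6.00-fold higher in tumor, and *H2-DMa* 2.08-fold and 2.19-fold. *Ciita* was at 22.3 CPM in control class II-high cells (34 UMIs) and 8.39 in tumor ones (10 UMIs), against 0.715 and 0.558 CPM in cells without a classical UMI. *Ciita*, the coactivator of the chains, was thus also higher in cells chosen on the chains, although few of its own molecules were caught. Against all cells that were not class II-high, *Cd74* was at 4876 and 331 CPM in control and 5700 and 261 in tumor, *H2-DMb1* at 300 and 79.3 and at 322 and 67.2, and *H2-DMa* at 486 and 252 and at 361 and 175. In that comparison 3.82% of all genes were past 1.5-fold higher in control and 6.36% in tumor.

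The gap between libraries differed by class of cell. Among cells without a classical UMI, *Cd74* was lower in tumor (log2 ratio -0.32, -0.39 to -0.25) and so was *H2-DMa* (-0.51, -0.55 to -0.47). Among class II-high cells, *Cd74* was higher in tumor (0.23, 0.18 to 0.27), as were *H2-Aa* (0.22), *H2-Ab1* (0.29) and *H2-Eb1* (0.39). Among class II-high cells without the monocyte list described below, *H2-Eb1* was at 826 CPM in control and 786 in tumor, the reverse order, *H2-Ab1* at 1553 and 1636, *H2-Aa* at 1418 and 1566, and *Cd74* at 4879 and 5133. Over all class II-high cells *H2-DMa* was lower in tumor (-0.43, -0.60 to -0.26), and *Ciita* had a log2 ratio of -1.41 (-2.59 to -0.36). The class II-high cells were cut on the chains, so the chain values compare only cells above the cutoff.

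The class II-high cells of the 2 libraries carried different other genes. In control the AM marker list had a median of 67 thinned UMIs in them and 63 in other cells, and 136 of 137 had at least 3 markers. In tumor the median was 52 against 60, and 87 of 97 had at least 3 markers. The single markers differed. In tumor class II-high over other cells the log2 ratio ran from -4.14 for the scavenger receptor *Marco* (11.8 and 207 CPM) to 0.30 for *Ctsk*. Between them lay *Krt79* (-2.11), *Car4* (-1.38), *Lpl* (-0.68), *Pparg* (-0.68), *Siglecf* (-0.61), *Fabp4* (-0.53), *Chil3* (-0.18) and *Ear2* (-0.13). In control *Marco* was at 525 and 584 CPM and *Chil3* had a ratio of 0.30. The monocyte and interstitial macrophage list, counted as carried at 3 UMIs from 2 genes, was carried by 47 of 97 tumor class II-high cells (48.5%) and 20.8% of other tumor cells. In control it was carried by 13 of 137 (9.49%) and 7.72%. Its summed level in class II-high cells was 367 CPM in control and 1451 in tumor, against 306 and 580 in other cells. Of its 10 genes 3 were at 0 in the control class II-high cells. *Cd14* and *Fcgr4* made up much of the sum, at 248 and 74.0 CPM in control class II-high cells and 667 and 115 in tumor ones. In other tumor cells they were at 370 and 110 CPM. Carrying the list therefore does not by itself name the cell type. The complement genes *C1qa* and *C1qb*, which are on that list and so helped to choose the 47 tumor cells, were at 254 and 497 CPM in them, and at 0 and 7.13 CPM in the other 50. Few cells held them, since over all 97 cells *C1qa* was seen in 7, with 48.1% of its thinned UMIs from 1 cell, and *C1qb* in 13, with 29.1% from 1 cell. *Apoe*, a lipid carrier not on the list, was at 4486 and 257 CPM. Fewer than 10 AM marker UMIs were found in 8 of the 47 and 2 of the 50. The part of monocyte-derived cells in the tumor values was not tested. Without every barcode that carried another type's list, 2.08% of control and 0.928% of tumor cells were class II-high.

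Few of them carried the lists of DCs or B cells. The DC list summed to 140 CPM in control class II-high and 132 in other cells, and to 97.4 and 162 CPM in tumor, nearly all of it *Cd24a*. Of the defining genes, *Xcr1* and *Fscn1* had no UMI in class II-high cells of either library, *Flt3* had 2 in control and 0 in tumor, and *Cd209a* 16 and 0. No other control cell had a UMI of *Flt3* or *Cd209a*, and of other tumor cells *Flt3* had none and *Cd209a* 1. *Clec9a* had 4 UMIs in control class II-high cells and 5 in tumor ones, at 2.62 and 4.20 CPM against 3.65 and 3.93 in other cells. *Zbtb46* had 1 and 2, at 0.655 and 1.68 CPM against 0.291 and 0.228, and *Dpp4* had 0 and 1. *Ccr7* and *Klrd1* of the same list had 3 UMIs each in tumor class II-high cells, at 2.52 CPM against 0.152 and 0.243 in other tumor cells. Control class II-high cells had none of either, and other control cells had 17 and 12 UMIs. The DC list was carried by 1 class II-high cell in control and none in tumor, and the B cell list by none and 1. The B cell list summed to 1.31 CPM in control class II-high and 0.855 in other cells, and to 25.2 and 0.44 CPM in tumor, where 1 class II-high cell had 18 thinned UMIs of the list. The epithelial list was carried by 29 of 137 control class II-high cells (21.2%) and 9.65% of other control cells. In tumor it was carried by no class II-high cell and 0.658% of other cells. Most of its level in control was *Krt19*, at 404 CPM in class II-high and 474 in other cells.

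Of all genes outside the members with at least 50 CPM in class II-high cells, the 10 with the largest ratio over other cells in control were *Cxcl9*, *S100a4*, *AA467197*, *S100a6*, *Epcam*, *Cfb*, *Il1b*, *Napsa*, *Ms4a6c* and *Plxnd1*. *Cxcl9*, a chemokine induced by interferon gamma, stood at 58.3 against 2.87 CPM, but 1 cell held 96.6% of its thinned UMIs. *S100a4* was at 155 against 19.9 CPM, in 32 of 137 cells, and *Epcam*, an adhesion molecule, at 167 against 50.8 CPM, in 52 cells. In tumor the 10 were *H2-M2*, *Plac8*, *C1qa*, *C1qb*, *C1qc*, *Cxcl9*, *Thbs1*, *AA467197*, *Lyz1* and *Pla2g7*. *H2-M2*, a nonclassical MHC class I gene, was at 133 against 2.28 CPM in 13 of 97 cells. *Cxcl9* was at 212 against 20.2 CPM in 20 cells, with 13.2% of its UMIs from the highest. Others rested on few cells, with *Plac8* in 4 cells and 69.0% of its UMIs from 1, *C1qa* as given above, and *Lyz1* in 8 cells and 46.2% from 1. *Cxcl9* and *AA467197* were on both lists.

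Class II was also read against an interferon score, the thinned UMIs of 20 type I interferon and 15 interferon gamma target genes, 34 of them in the table and none a class II gene. Cells with at least 6 such UMIs, at most 5% of all thinned cells, are called interferon-high. They were 27 of 5590 control cells (0.483%) and 559 of 6937 tumor cells (8.06%). The cutoff had 193 tumor cells 1 UMI below it and 118 on it. In tumor, the share of cells with class II RNA was higher at each step of the score. A classical UMI was found in 15.5% (14.2 to 16.9) of the 2810 cells with a score of 0, then in 20.9%, 23.1%, 28.0% and 31.6%, and in 38.9% (31.5 to 46.8) of the 167 cells with 12 or more. The class II-high share went from 0.783% (0.491 to 1.18) to 6.59% (3.33 to 11.5). Neighbouring steps often overlapped in their intervals, while the ends did not. In control the positive share was 22.5% at 0, 22.7% at 1 and 26.5% at 2 to 3. It was 54.5% (32.2 to 75.6) at 4 to 5, over 22 cells.

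**Figure D4:**
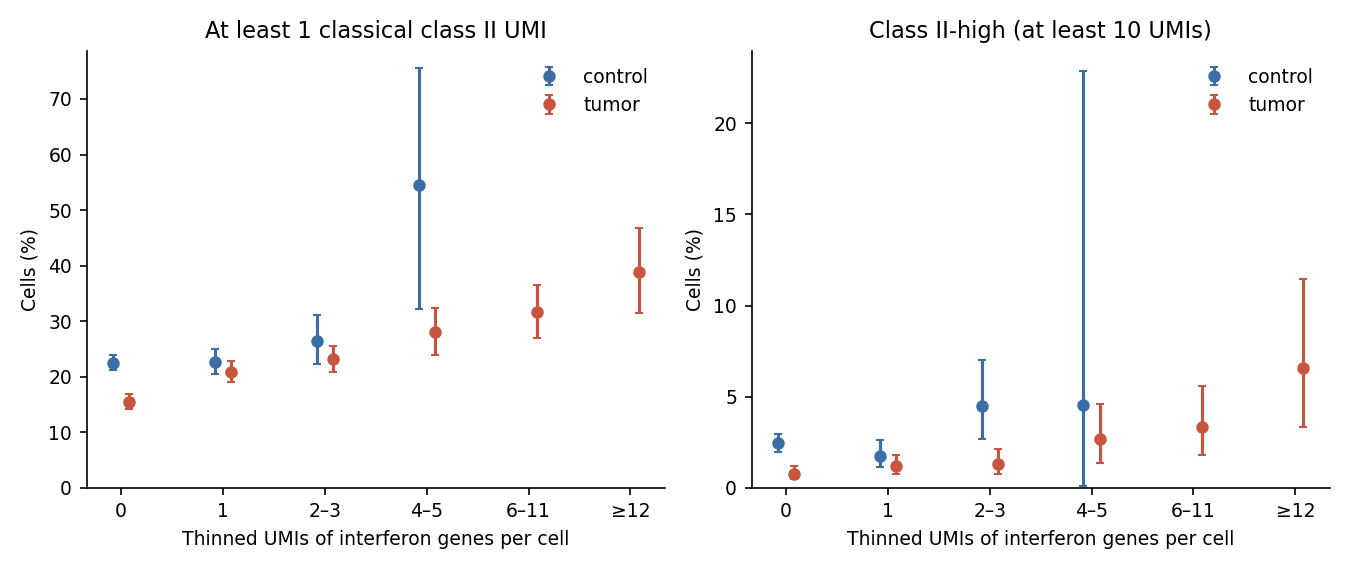
Percent of cells with at least 1 classical class II UMI (left) and with at least 10 (right), by the thinned UMIs of the interferon genes in the cell. Blue is control, red tumor, bars are exact 95% binomial intervals, and steps with under 20 cells are left out. The tumor share climbs from 15.5% to 38.9% on the left and from 0.783% to 6.59% on the right.

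By gene, the step from a score of 0 to one of 12 or more took *H2-Aa* from 52.3 to 271 CPM in tumor, *H2-Ab1* from 54.8 to 337, *H2-Eb1* from 20.7 to 153 and *Cd74* from 210 to 1116. The H2-DM genes differed less, with *H2-DMa* at 174 and 224 CPM and *H2-DMb1* at 63.5 and 117. *Ciita* was at 1.30 and 4.09 CPM. Between all interferon-high and all other tumor cells the log2 ratio was 1.36 for *H2-Aa*, 1.48 for *H2-Ab1*, 1.57 for *H2-Eb1*, 1.31 for *Cd74*, 0.25 for *H2-DMa*, 0.42 for *H2-DMb1* and 0.99 (0.19 to 1.72) for *Ciita*, which rested on 19 UMIs in the interferon-high cells. Of the 7 genes 5 were past 1.5-fold higher, beside 6.56% of all genes, and their median log2 ratio was 1.31 against -0.11. In the 27 interferon-high control cells *H2-Ab1*, *H2-Eb1* and *Cd74*, 3 of 6 compared genes, were past 1.5-fold higher, beside 13.4% of all genes.

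Of the interferon-high tumor cells 24 of 559 were class II-high, 4.29% (2.77 to 6.32), and of the other tumor cells 73 of 6378, 1.14% (0.898 to 1.44). The difference was 3.15 percentage points (1.60 to 5.19). Conversely, 24.7% (16.5 to 34.5) of class II-high tumor cells were interferon-high. In control 2 of 27 interferon-high cells were class II-high, against 135 of 5563, and the interval of the difference ran from -1.53 to 21.9 percentage points. Interferon-high tumor cells were deeper before thinning, with a median of 11655 against 8574.5 UMIs.

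Among tumor cells with at least 1 classical UMI, those that were interferon-high had a higher level. A cell with 1 UMI may hold only free RNA. Of tumor barcodes with neutrophil, fibroblast or T and NK cell markers 10.3% (2.19 to 27.4) were positive, and of all thinned tumor cells 20.6%. Most of these marked barcodes carried the neutrophil list and may be macrophages. The classical level was 1474 CPM in 189 interferon-high positive cells and 851 in 1242 others, a log2 ratio of 0.79 (0.74 to 0.85), which was 0.29 (0.22 to 0.35) among cells with at least 5 UMIs. It was 0.73 for *Cd74*, 0.37 for *H2-DMb1*, 0.28 for *H2-DMa* and 0.30 (-0.65 to 1.16) for *Ciita*. In 11 and 1277 positive control cells the classical ratio was 0.16 (-0.08 to 0.38). Positive and class II-high cells were both chosen on the classical genes, so their classical levels compare only cells above each cutoff. Within class II-high cells the gap was smaller, and the part of the cutoff in this was not tested. The 24 interferon-high ones in tumor had 10 to 103 thinned UMIs with a median of 16.5, and the 73 others 10 to 95 with a median of 12, so the ranges overlapped almost fully. Their classical levels were 5196 and 4432 CPM, a log2 ratio of 0.23 (0.15 to 0.31), which was 0.12 without the highest cell. The direction turned at a class II cutoff of 20, to -0.33 (-0.45 to -0.22), and with the highest 10% of cells as interferon-high the ratio was -0.0063 (-0.083 to 0.071). None of the 6 members that could be compared there was past 1.5-fold, beside 12.7% of all genes. The monocyte list was carried by 11 of the 24 and 36 of the 73, and the median AM marker sum was 64.5 and 52. In control the 2 interferon-high cells had 11 and 14 UMIs, and the ratio over the other 135 was -0.53 (-0.83 to -0.24).

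The score's relation with class II was also read within and outside the Apoe and S100a6 gate. This gate held the cells highest in thinned UMIs of *Apoe*, *S100a6* and *S100a4*, at most 5% of both libraries together. It was passed by 532 tumor and 19 control cells. Inside it, 3 of 97 interferon-high tumor cells were class II-high (3.09%, 0.642 to 8.77) and 20 of 435 others (4.60%, 2.83 to 7.01), so their intervals overlapped. Outside it, the shares were 21 of 462 (4.55%, 2.84 to 6.86) and 53 of 5943 (0.892%, 0.669 to 1.16). The classical level was 661 CPM in cells with both, 465 in the gate alone, 502 in interferon-high cells alone and 170 in cells with neither. The gate as a whole had a log2 ratio of 1.34 (1.28 to 1.39) over the rest in tumor. In control it was 4.05, and 2.09 without 1 cell that had 156 thinned classical UMIs.

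Other gates, each at most the highest 5% of cells of both libraries together by a gene or list, differed in class II as well. Cells high in heat shock genes had less in both libraries, with 106 against 248 classical CPM in 102 control cells and 85.2 against 240 in 505 tumor cells. Their log2 ratios were -1.22 (-1.49 to -0.97) and -1.49 (-1.64 to -1.35). *Cd74* was also lower there, with log2 ratios of -0.96 and -1.26. *H2-DMa* was near other cells, at 243 and 258 CPM in control and 191 and 177 in tumor. Cells high in mitotic genes had less *H2-DMa* than others in both libraries (-0.58 in control, -0.52 in tumor). Cells high in *Ear1*, *Ear2* and *Ear10*, ribonuclease genes of AMs, had more *H2-DMa* in both (0.59 and 0.58).

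**Figure D5:**
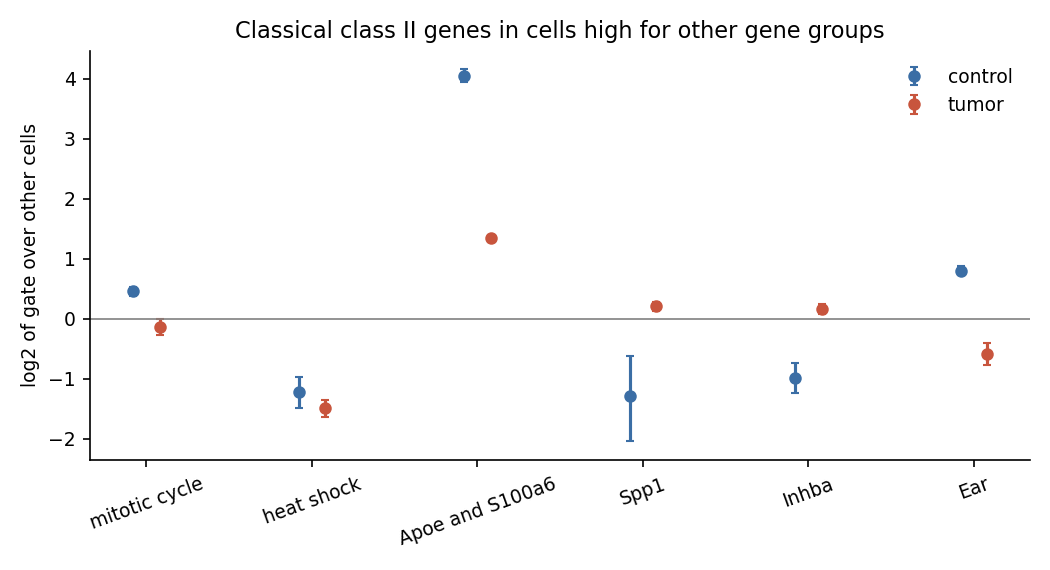
Log2 ratio of the summed CPM of H2-Aa, H2-Ab1 and H2-Eb1 in cells high for each gene group over all other cells. Bars are exact 95% intervals for counting error. Each cutoff left at most 5% of the cells of both libraries together. The share of each library differs, as for Spp1 with 0.304% of control and 8.32% of tumor cells. Blue is control, red tumor. Heat shock-high cells lie near -1.2 and -1.5, and the mitotic, Spp1, Inhba and Ear groups lie on opposite sides of 0 in the 2 libraries.

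Of 28 further genes of the pathway, 25 had at least 10 UMIs in each library. Past 1.5-fold, 7 were higher in tumor and 1 was lower, beside 8.02% and 12.0% of all compared genes, and their median log2 ratio was 0.25, against -0.24 for the 7 members. The endosomal enzymes that cut the invariant chain and antigens were mostly higher. *Ctss*, cathepsin S, had 2392 CPM in control and 4055 in tumor (log2 ratio 0.76), *Ctsl* had 264 and 417 (0.66) and *Lgmn* 216 and 338 (0.65). *Sppl2a*, which clears the last invariant chain fragment from the membrane, had 181 and 227 CPM (0.33). *Ifi30*, the thiol reductase of the endosome, had 458 and 329 CPM (-0.48).

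Of the factors of the X and Y boxes none of 7 was past 1.5-fold, with log2 ratios from -0.31 for *Rfxap* to 0.30 for *Nfya* (29.8 and 36.8 CPM). *Creb1* had 43.4 and 48.6 CPM and *Nfyc* 26.7 and 23.9. Of the upstream regulators *Irf1*, an interferon-induced transcription factor, had 28.5 and 52.2 CPM (0.87), and the interferon gamma receptor chain *Ifngr2* had 52.0 and 82.8 (0.67), both past 1.5-fold higher. The feedback inhibitor *Socs1*, named after its values were seen, had 1.45 and 4.03 CPM. *Irf8* had 125 and 168 CPM, *Ifngr1* 136 and 160, *Jak1* 134 and 160, *Jak2* 20.7 and 27.5, and *Spi1* 419 and 394. *Marchf1*, a ubiquitin ligase that removes class II from the surface, had 44.1 and 57.4 CPM, and *Marchf8* 39.4 and 41.5. *H2-Oa*, a chain of the H2-DM inhibitor H2-O, was the 1 gene past 1.5-fold lower, at 2.33 and 1.09 CPM, and was named after its values were seen. *H2-Ea* was not analysed here.

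In interferon-high over other tumor cells, *Socs1* (log2 ratio 1.06), *Ctss* (0.59) and *Irf1* (0.57) were higher, and the ratios of the 7 box factors lay between -0.57 and 0.06. In class II-high over other cells, *Ctss* had 0.24 in control and 0.74 in tumor, and *Ifi30* 0.42 and 0.73. *H2-Oa* had 1.99 (1.04 to 2.81) and 2.53 (1.16 to 3.65), the tumor value from only 7 UMIs in class II-high cells. *Spi1*, the macrophage factor PU.1, had 0.03 and 0.01.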

How the data were processed

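Droplet 3′ libraries were read from sorted AMs, 1 per condition. The authors deposited raw UMI counts per gene and barcode, made with bcl2fastq 2.20 and Cell Ranger 4.0.0 on build mm10 per the submitters' processing notes, while the study's methods name a later Cell Ranger. The deposited counts were not normalized, and no hashtag reads were used here. The study estimated the sample of each barcode from hashtag counts. That step was not repeated, and each library was taken as its labelled sample, so barcodes that the study may have placed in the other sample stay where the labels put them. Of 32285 identifiers, 32158 were matched to a symbol.

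CPM, ratios and shares were computed from summed UMIs in cells past the filter (at least 500 genes, at most 10% mitochondrial UMIs). Cells were thinned without replacement to 3800 UMIs, a depth set from percentile 10 of the cells, in steps of 100. Intervals were exact (Poisson, conditional binomial or Clopper-Pearson, 95%) and cover counting error only. Limits for differences of shares were built from the limits of both shares. With 1 library per condition neither a count model nor a p-value was used. Genes past 1.5-fold were counted among those with at least 10 UMIs on each side.

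Named genes are the 7 members, other pathway genes with at least 20 CPM in either library, the 10 genes with the highest r with the classical sum among genes seen in at least 50 thinned cells of each library, and the 10 largest ratios of class II-high over other cells among genes with at least 50 CPM there. A gene of the upstream regulator list that meets this rule is not reported here. The members and lists were chosen with earlier results of these data known. Promoter windows came from RefSeq (GRCm38.p6), and gene positions from the GENCODE annotation of the same build.

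Alternatives changed the doublet removal (highest 6% of Scrublet scores), the cell filter (1000 genes, 5% mitochondrial), cells with other types' markers, the total, the weighting, the thinning, the class II cutoffs and the interferon lists. Leaving out the Apoe and S100a6 gate, leaving out only DC, B, T and NK, neutrophil and fibroblast carriers, the cutoff of 1 UMI and the depth of 10000 UMIs were added after seeing the data. Ratios and thinning were tested on simulated data. Scanpy 1.11.5, scikit-learn 1.9.0, pandas 2.3.3, numpy 2.4.6, scipy 1.17.1 and matplotlib 3.10.9 were run in Python 3.11.15.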

Additional observations from a re-analysis of the deposited data

Results flagged for a closer look

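Class II RNA was also present in barcodes that failed the filter, which no comparison above uses. The 2300 such control barcodes held 336 classical UMIs, 112 CPM, and the 1509 tumor barcodes held 161, 83.1 CPM. A count of 0 would allow at most 1.55 CPM there. The kept cells had 249 and 227 CPM.

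In 5 comparisons the classical genes lay on opposite sides of 0 in the 2 libraries, with counting intervals that left out 0 on both sides. The difference between libraries was not tested, since each is 1 sample. Cells high in mitotic genes had a log2 ratio over other cells of 0.46 in control (352 cells) and -0.14 in tumor (198 cells). Cells high in *Spp1* had -1.28 in 17 control cells and 0.21 in 577 tumor cells. Cells high in *Inhba* had -0.98 in 79 control cells and 0.16 in 495 tumor cells. Cells high in the Ear genes had 0.80 in 411 control cells and -0.59 in 193 tumor cells. Interferon-high over other class II-high cells had -0.53 in control, from 2 cells, and 0.23 in tumor, from 24. At equal depth and with the same weight for each cell, the mitotic ratio was 0.49 in control and -0.08 (-0.33 to 0.17) in tumor, and the *Inhba* ratio -0.23 (-0.61 to 0.12) and 0.10 (-0.06 to 0.25). The Ear ratio stayed at 0.90 (0.78 to 1.01) and -0.34 (-0.62 to -0.07). The *Spp1* ratio was -2.04 (-3.91 to -0.68) in control and 0.36 (0.23 to 0.49) in tumor. Its control value rests on few UMIs, a mean of 0.235 per cell in 17 cells.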

How the results depend on the processing

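All 49 values of the single members under 7 alternatives stayed below 0, from -0.88 to -0.05 on the log2 scale. The median of all compared genes, -0.07 in the main setting, was not recomputed under these alternatives. The classical ratio of tumor over control (-0.14) was -0.37 without the 1022 control and 1623 tumor barcodes that carried another type's markers. Leaving out only DC, B, T and NK, neutrophil and fibroblast carriers, 30 control and 57 tumor barcodes, gave -0.13 (-0.16 to -0.10). The ratio was -0.27 without the Apoe and S100a6 gate and -0.49 as the mean of each cell's own CPM. It was -0.18 without mitochondrial and ribosomal protein genes in the total. The class II-high share (2.45% in control, 1.40% in tumor) was 8.04% and 5.17% unthinned, 6.73% and 4.32% at a cutoff of 5, 0.286% and 0.332% at 20, and 23.0% and 20.6% at the cutoff of the fitted Gaussians, which fell at 1 UMI. Without carriers of other types it was 0.928% in tumor, and 1.39% when monocyte and epithelial carriers were kept. The highest 5% of cells held 62.2% of the classical UMIs in control without those carriers, and 58.4% in tumor at 10000 UMIs.

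The class II-high share of interferon-high tumor cells (4.29%) was 7.32% with the interferon gamma list only, 11.4% at a class II cutoff of 5, 1.79% at 20 and 33.8% at 1. In control (7.41%) it was 0 of 27 cells at 20, with an exact upper limit of 12.8%, and 40.7% at 1. In tumor the share exceeded that of the other cells under each alternative run. The level ratio within class II-high tumor cells (0.23) was 0.51 for the highest 2%, 0.029 with the type I list only and 0.79 at a cutoff of 1. It turned to -0.0063 (-0.083 to 0.071) for the highest 10% and to -0.33 at a class II cutoff of 20. In control (-0.53, 2 cells) it was -0.13 at 5, and it turned to 1.90 for the highest 10%, which added the cell with 156 UMIs, and to 0.16 at 1. It had no value at 20. The other causes were not tested. No paired analysis was possible because each condition is 1 library. Depth limits *Ciita* most, with 156 and 104 UMIs.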

Other observations

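The cell with the most class II RNA in each library had few AM marker UMIs. In control it had 156 thinned classical UMIs and 107 of *Cd74*, with 3 AM marker UMIs against a median of 63, and alone held 3.39% of the library's classical UMIs. At its full depth of 12467 UMIs the DC list was at 1444 CPM, against 132 CPM in control cells that were not class II-high. After thinning it had 2 UMIs of *Cd209a* and 6 of *Ccl17*, both known from DCs. It had 0 of *Flt3*, *Zbtb46*, *Fscn1*, *Ccr7* and *Ccl22*. Its thinned DC list sum of 2 was below the 3 UMIs needed to carry the list, and its cell type was not tested. In tumor the highest cell had 103 classical UMIs, 103 of *Cd74*, 2 AM marker UMIs against a median of 60, and 29 UMIs of the monocyte and interstitial macrophage list. Without these cells the classical level of the thinned cells was 237 CPM in control, from 246, and 227 CPM in tumor, from 229. *Ccl17* was looked up after its values were seen.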
